A study of Mus musculus with 42 samples.

Results

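GAS6, PROS1 and the TAM receptors were 5 genes of the 55011 in the count table, found by their symbols: the ligand genes Gas6 and Pros1 and the receptor genes Axl, Mertk and Tyro3. They were chosen by results already known from the same counts, the lower Gas6 level of fresh VmSC5 than of fresh VmSC4 among them, so the values of that contrast are given below as a description with no test. The series holds 42 RNA-seq libraries of mouse visceral adipose tissue (VAT) in 15 groups, and asks how regulatory T cells (Tregs) and the cytokine oncostatin M (OSM) act on adipogenesis. VmSC4 and VmSC5 are 2 stromal cell populations of VAT from Pparg-Tdt animals. They were sequenced fresh (3 libraries each), after 8 days of adipogenic culture (3 each), and after transfer into Kaeda recipient mice. The transferred cells were sorted again as VmSC4-derived VmSC4 (3), VmSC4-derived VmSC5 (3) and VmSC5-derived VmSC5 (2). Floating cells, labelled adipocytes, came from diphtheria toxin-treated Pparg-Tdt:Foxp3-DTR- and Pparg-Tdt:Foxp3-DTR+ littermates (2 each). The toxin was thus given to both groups, and only DTR+ animals carry the receptor that lets it deplete Tregs. VmSC5 of Pparg-Tdt animals also underwent adipogenic differentiation without or with Treg (3 each; the series text speaks of medium conditioned by VAT Tregs), and with PBS or 10 ng/mL OSM (3 each). Tregs of epididymal VAT (the label is eVAT) were OSM+/+ or OSMf/f (3 each), titled WT and KO. The labels name no Cre line, sort gate or age, and do not say whether libraries of a group came from separate animals or wells, so p-values measure the spread between these libraries, which may be technical.

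TAM receptors are receptor tyrosine kinases named for TYRO3, AXL and MERTK. Their ligands, GAS6 and protein S (PROS1), carry a Gla domain that needs vitamin K-dependent carboxylation to bind phosphatidylserine, the lipid that dying cells expose. Ligand and receptor together lead to the engulfment of dying cells and dampen innate immune signalling, in part through interferon receptors and SOCS proteins. GAS6 binds all of the TAM receptors, AXL responds to GAS6, and protein S acts through TYRO3 and MERTK and is also a plasma anticoagulant cofactor. In adipose tissue, Gas6 is made by stromal cells, and MERTK is best known from macrophages.

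In GRCm38 (GENCODE M21), Gas6 lies on the minus strand of chromosome 8 (13465374 to 13494490), Pros1 on the plus strand of chromosome 16 (62854307 to 62929346), Axl on the minus strand of chromosome 7 (25757273 to 25788705), and Mertk (128698956 to 128802894) and Tyro3 (119797733 to 119818104) on the plus strand of chromosome 2. Tmem255b, a gene on the opposite strand, shares 34 bases of exon with Gas6, and the strand setting of the counting is not given in the sources used here. Pros1 and Axl were the members that moved most in the cultures with Tregs or OSM, so the 250 bases before the RefSeq start of both (GRCm38.p6) are shown, with a match to TTCCNGGAA, the consensus of the OSM-activated factor STAT3, in capitals.
Pros1, chr16:62854057-62854306, plus strand: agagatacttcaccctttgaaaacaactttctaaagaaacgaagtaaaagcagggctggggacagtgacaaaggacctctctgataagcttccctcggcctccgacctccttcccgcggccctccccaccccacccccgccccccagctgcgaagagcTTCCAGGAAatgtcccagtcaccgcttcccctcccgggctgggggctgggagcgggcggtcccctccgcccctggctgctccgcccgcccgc
Axl, chr7:25788734-25788983, minus strand: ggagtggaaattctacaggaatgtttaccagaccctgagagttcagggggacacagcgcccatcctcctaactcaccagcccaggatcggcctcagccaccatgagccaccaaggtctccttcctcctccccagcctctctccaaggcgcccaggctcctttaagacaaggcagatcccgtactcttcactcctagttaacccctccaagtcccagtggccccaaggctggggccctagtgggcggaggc
The Pros1 window held 1 match, TTCCAGGAA, which starts 92 bases upstream of the gene start, a site at which the consensus matches on both strands. The Axl, Gas6, Mertk and Tyro3 windows held no match on either strand, nor one to the wider TTCNNNGAA, of which TTCCNGGAA is a special case. Of 32851 RefSeq windows of this length, 300 (0.9132%) held TTCCNGGAA and 2306 (7.02%) held TTCNNNGAA. A match describes letters, not a bound site.

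Library totals ran from 1072147 counts (VmSC5 with OSM) to 12514783 (fresh VmSC4), and levels are given in CPM, counts divided by the library's total and scaled to a common total, as mean ± SD. Summed over 7 stromal markers, the level was 44369 to 51336 CPM in fresh and 97123 to 158628 in transferred cells, and 1418 to 1742 in VmSC4 and VmSC5 cultures, where 7 adipocyte markers summed to 29569 to 31975. Floating cells held 25746 to 33124 CPM of the adipocyte markers. All 7 Treg markers were detected in both Treg groups (2964 to 3868 CPM summed). Osm itself was at 28.4 to 34.1 CPM in WT and 7.76 to 14.6 in KO Tregs, and the deleted exons are not given. Libraries standing apart were DTR+ replicate 3, with 15351 genes detected against 17034 to 17903 in the other 3 floating-cell libraries, Treg KO replicate 2, with 16756 against 21202 to 24287, and Treg KO replicate 1, with 69.3 CPM of 12 macrophage markers against 4.36 to 15.8.

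Gas6 spanned the widest range of the 5 genes as a ratio of highest to lowest group mean (1766). The lowest mean rests on 8 counts in all. Its group means ran from 1257 ± 62.5 CPM in VmSC4-derived VmSC4 (n = 3) to 0.712 ± 0.775 in WT Tregs (n = 3). The order below the top was VmSC4-derived VmSC5 (1064), fresh VmSC4 (871), VmSC5 with Treg (838), VmSC5 with PBS (742.1), VmSC5-derived VmSC5 (741.8), VmSC5 without Treg (675), VmSC5 with OSM (571), fresh VmSC5 (476), DTR- floating cells (436), cultured VmSC4 (318), cultured VmSC5 (214), DTR+ floating cells (116) and KO Tregs (2.38). Of the 14 neighbouring pairs in this order, 6 differed by more than the sum of their SDs and 8 did not. Gas6 transcripts were thus found in stromal and floating-cell libraries, with at most 27 counts in a Treg library. None of these orders was tested across experiments, since preparation and depth differ between them.

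Pros1 was highest in VmSC5 treated with OSM, at 1329 ± 15.8 CPM, far above the next group, VmSC5-derived VmSC5 at 525 ± 68.3 (n = 2). Both other transferred groups followed (449 and 439), then fresh VmSC4 (279), VmSC5 with PBS (274), VmSC5 with Treg (256), fresh VmSC5 (224) and VmSC5 without Treg (112). WT (63.6) and KO Tregs (56.7), DTR- floating cells (48.3), cultured VmSC5 (33.4) and VmSC4 (29.4) and DTR+ floating cells (17.4) were lowest. In 9 of the 14 neighbouring pairs the gap was within the sum of the SDs.

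Axl, the TAM receptor of fibroblast-like cells, had its highest mean in fresh VmSC5 (1259 ± 163 CPM), followed by VmSC5-derived VmSC5 (1152), VmSC4-derived VmSC5 (1015), VmSC4-derived VmSC4 (928) and fresh VmSC4 (843). VmSC5 with Treg (523), OSM (464), PBS (294) and without Treg (212) came next. Tregs held 95.4 (WT) and 73.1 CPM (KO), above the cultured VmSC4 (58.7) and VmSC5 (52.7) and the floating cells (24.2 in DTR-, 3.02 in DTR+). Of 14 neighbouring pairs, 7 were further apart than their SDs summed.

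Mertk stood highest where Axl was lowest. Its group means were 60.5 ± 14.2 CPM in DTR- and 48.3 ± 56.4 in DTR+ floating cells (n = 2 each), 24.9 to 34.1 in fresh and transferred stromal cells, 24.8 and 23.0 in VmSC5 with and without Treg, 8.43 and 7.67 with PBS and OSM, and 0.199 to 2.29 in the remaining groups. Of 14 neighbouring pairs, 2 were further apart than their SDs summed. Macrophage markers, summed over 12 genes, were at 11.6 to 36.3 CPM in fresh, transferred and 8-day cultured cells, with 4 to 7 of the 12 at 0 in all but fresh VmSC5 (1 at 0), at 216 to 457 CPM in floating cells and at 199 to 529 in the other VmSC5 cultures, where all 12 had counts. Their part in the Mertk levels was not tested.

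Tyro3 was low in every group, from 22.1 ± 3.65 CPM in VmSC4-derived VmSC5 to 0.202 ± 0.0924 in DTR+ floating cells (3 counts in all). KO and WT Tregs (15.9 and 13.04) ranked among the stromal groups, whose means were 21.2 in VmSC4-derived VmSC4, 13.5 in fresh VmSC5, 11.5 in VmSC5-derived VmSC5 and 9.56 in fresh VmSC4. VmSC5 with OSM (6.97), PBS (4.64), with (3.69) and without Treg (3.36), cultured VmSC5 (3.29) and VmSC4 (3.25), and DTR- floating cells (0.806) came below. The gap passed the summed SDs in 3 of the 14 neighbouring pairs.

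**Figure D1:**
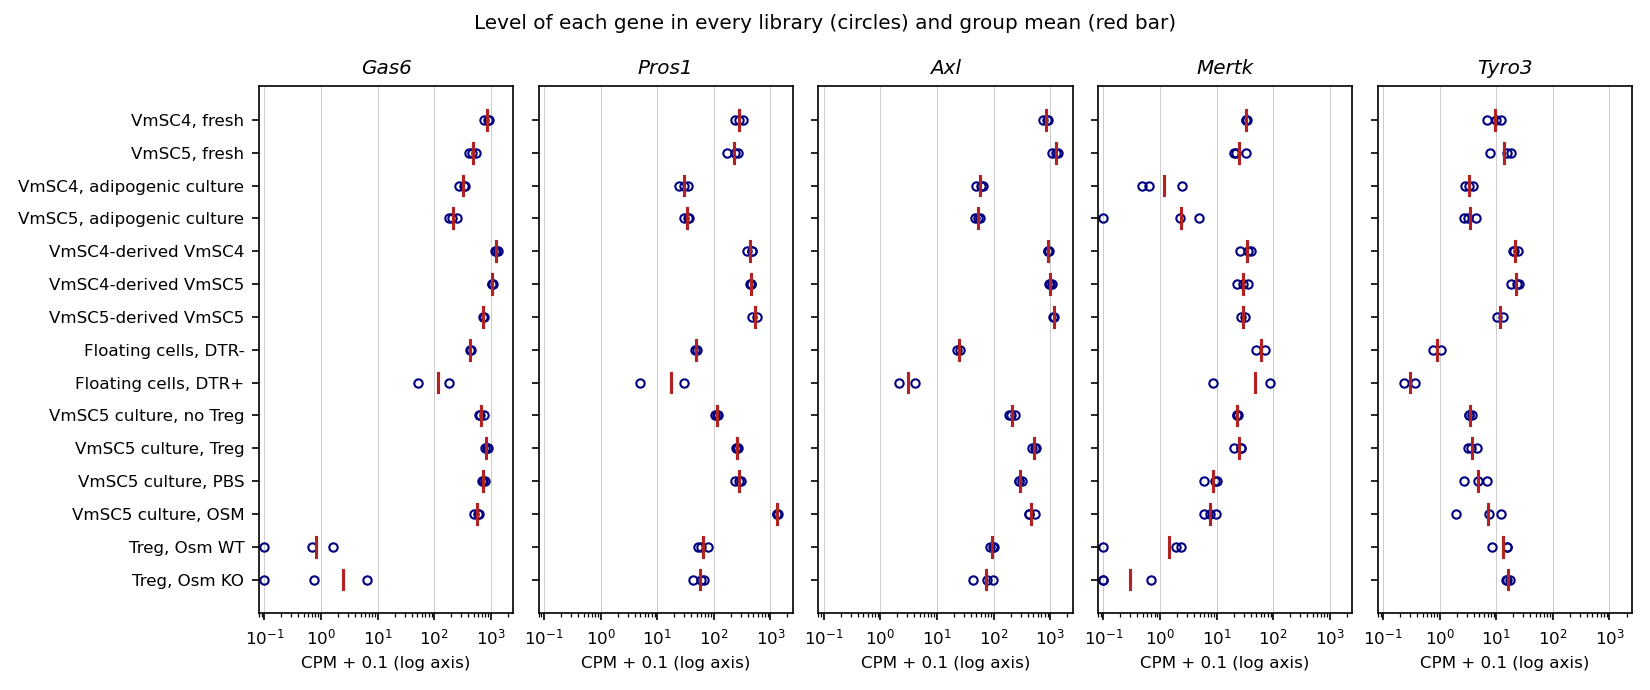
Level of Gas6, Pros1, Axl, Mertk and Tyro3 in each of 42 libraries (circles; x axis, CPM + 0.1, log scale) by group (y axis), with the group mean as a red bar. Gas6 is near 0 in Tregs alone, Pros1 peaks with OSM at 1329 CPM, and Mertk is the only receptor gene whose highest means are in floating cells.

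Per kilobase of exon, which allows genes to be compared, Gas6 exceeded Pros1 in every stromal and floating-cell library outside the OSM group. The Gas6 to Pros1 ratio was 4.52 to 5.43 in fresh VmSC4 libraries, 2.49 to 5.18 in fresh VmSC5, and 14.8 to 21.9 in cultured VmSC4. With OSM it fell below 1, at 0.608 to 0.755, against 4.09 to 4.84 with PBS. In Tregs it was 0 to 0.173, Gas6 being below Pros1 in every Treg library. Axl exceeded Mertk per kilobase in all stromal and Treg libraries that had a Mertk count (7.17-fold or more), and Mertk exceeded Axl in all 4 floating-cell libraries (Axl to Mertk ratio 0.0391 to 0.438).

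Fresh VmSC5 and VmSC4 differed in opposite directions for the ligand Gas6 and its receptor gene Axl. Gas6 was at 948, 760 and 905 CPM in the VmSC4 libraries and at 418, 460 and 550 in VmSC5, a log2 ratio of means of -0.87. Axl was at 900, 745 and 885 CPM in VmSC4 and at 1289, 1405 and 1083 in VmSC5 (0.58). For both genes the groups did not overlap. Mertk did not overlap either (33.0, 34.1 and 32.8 against 20.0, 32.6 and 22.0 CPM, -0.42), although the highest VmSC5 library was just below the lowest VmSC4 library. Pros1 (280, 237 and 321 against 269, 233 and 170 CPM, -0.32) and Tyro3 (6.87, 11.9 and 9.93 against 7.62, 17.8 and 15.2 CPM, 0.50) overlapped. As this contrast chose the members, these values are a description, and the share of all genes without overlap was not counted.

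Transfer asked whether VmSC4 give rise to VmSC5, so the transferred groups show these genes in VmSC5 of different origin. Counts were tested here and below with edgeR's quasi-likelihood test, a gene being called at adjusted p under 0.05 (Benjamini-Hochberg over all genes tested); log2 fold changes are given ± SE. Gas6 was at 1325, 1202 and 1245 CPM in VmSC4-derived VmSC4, 1041, 1073 and 1077 in VmSC4-derived VmSC5, and 734 and 750 in VmSC5-derived VmSC5. The 3 groups did not overlap, and VmSC4-derived VmSC5 lay between the others. Gas6 was lower in VmSC5-derived VmSC5 than in VmSC4-derived VmSC4 (log2 fold change -0.75 ± 0.14, edgeR adjusted p = 0.00135). It was the only member of 5 called there, where 3.41% of all tested genes were called. VmSC4-derived VmSC5 were higher than VmSC5-derived VmSC5 by 0.59 ± 0.14 (edgeR adjusted p = 0.0266; 1 of 5 members, against 1.15% of all genes). That call was lost whenever any 1 of the 5 libraries was left out (edgeR adjusted p 0.0668 to 0.236), and the former was lost without VmSC5-derived VmSC5 replicate 1 (0.0603), which left 1 library assumed to vary like the other groups. No member was called between VmSC4-derived VmSC5 and VmSC4-derived VmSC4 (Gas6 -0.16 ± 0.12, edgeR adjusted p = 0.532; 1.77% of all genes called). An unadjusted p under 0.05 was reached by 0 of the 5, and DESeq2 called 0. These 3 comparisons share libraries pairwise. The stromal marker sum was 144327 to 149552 CPM in VmSC4-derived VmSC4, 151293 to 158628 in VmSC4-derived VmSC5 and 97123 to 98866 in VmSC5-derived VmSC5, with 2 of 7 markers lower and none higher in the last group than in the first (median 0.03). The endothelial sum was 75.9 to 121, 136 to 153 and 195 to 259 CPM (1 of 6 higher and 1 lower). Their part in the Gas6 difference was not tested.

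Axl did not pass between any of the transferred groups in the fit over all 5 fresh and transferred groups. Its libraries were at 901, 952 and 932 CPM in VmSC4-derived VmSC4, 1088, 1006 and 949 in VmSC4-derived VmSC5, and 1146 and 1159 in VmSC5-derived VmSC5. The last group was above all others, yet the difference from VmSC4-derived VmSC4 did not pass (0.33 ± 0.12, edgeR adjusted p = 0.175). Tyro3, at 20.2, 19.3 and 24.0 CPM in VmSC4-derived VmSC4 and 23.5, 18.0 and 24.8 in VmSC4-derived VmSC5, was at 13.1 and 10.0 in VmSC5-derived VmSC5. The latter libraries were below all others, and neither contrast passed (edgeR adjusted p = 0.164 and 0.166). Both Tyro3 contrasts passed when only the compared groups entered the fit (edgeR adjusted p = 0.0323 and 0.0201). Mertk (23.1 to 40.7 CPM over the 8 libraries) and Pros1 (387 to 573) gave no call.

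Transferred cells held more ligand transcript than fresh cells. Gas6 was higher in VmSC4-derived VmSC4 than in fresh VmSC4 (0.55 ± 0.12, edgeR adjusted p = 5e-04), as were Pros1 (467, 387 and 465 against 280, 237 and 321 CPM; 0.68 ± 0.14, 0.000392) and Tyro3 (1.19 ± 0.28, 0.00112). Axl (0.16 ± 0.11, 0.25) and Mertk (0.03 ± 0.20, 0.912) did not pass. Thus 3 of 5 members were called, while 46.1% of all tested genes were. VmSC5-derived VmSC5 likewise had more Gas6 (0.58 ± 0.13, edgeR adjusted p = 0.00082) and Pros1 (573 and 477 against 269, 233 and 170 CPM; 1.18 ± 0.16, 1.54e-06) than fresh VmSC5, 2 of 5 members against 46.4% of all genes. Axl (-0.18 ± 0.12), Mertk (0.17 ± 0.23) and Tyro3 (-0.28 ± 0.32) did not pass. Stromal markers were also higher in sum in transferred than in fresh cells, as given above, with 6 of 7 called higher and 1 lower in both comparisons. Fresh libraries held more counts (8527769 to 12514783 against 1967123 to 5044946): transfer and preparation cannot be told apart.

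**Figure D2:**
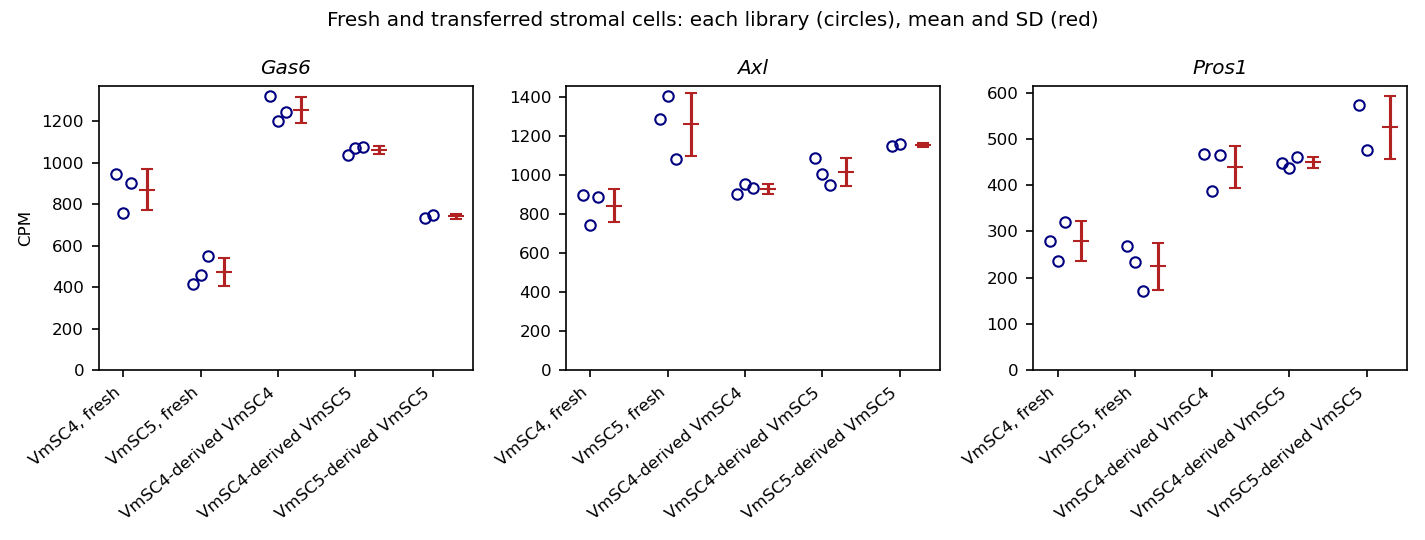
Gas6, Axl and Pros1 in fresh and transferred stromal cells (y axis, CPM from 0; circles, libraries; red, mean and SD; n = 3, or 2 for VmSC5-derived VmSC5). Gas6 falls from VmSC4-derived VmSC4 to VmSC5-derived VmSC5 without overlap, and the Pros1 means of all transferred groups are above those of fresh cells.

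Adipogenic culture for 8 days lowered all 5 genes against the fresh cells, Axl and Mertk most. Axl was at 65.7, 49.5 and 61.0 CPM in cultured VmSC4 and 53.7, 46.1 and 58.2 in cultured VmSC5, against 745 CPM or more in every fresh library. Its log2 fold change was -3.31 ± 0.14 for VmSC4 (edgeR adjusted p = 3.46e-17) and -4.16 ± 0.15 for VmSC5 (5.17e-19). Mertk dropped to 0.543, 0.384 and 2.33 CPM in cultured VmSC4 and to 0, 4.73 and 2.14 in cultured VmSC5 (7 and 15 counts in all; the library at 0 allows up to 1.29 CPM, for counting error only). The changes were -4.41 ± 0.55 (8.56e-07) and -3.00 ± 0.48 (1.78e-05). Pros1 fell to 24.4, 34.5 and 29.3 CPM in VmSC4 (-2.69 ± 0.18, edgeR adjusted p = 7.49e-13) and to 29.2, 35.3 and 35.8 in VmSC5 (-2.32 ± 0.17, 1.03e-11). Every cultured library was below every fresh library for Axl, Mertk and Pros1, and the share of all genes for which this holds was not counted.

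Gas6 had the smallest fall by its point value, although in VmSC4 it was not apart from that of Tyro3 within the SE of Tyro3. It was at 333, 350 and 272 CPM in cultured VmSC4 (-0.91 ± 0.14, edgeR adjusted p = 5.42e-06) and at 184, 254 and 204 in cultured VmSC5 (-0.73 ± 0.15, 9.48e-05). Tyro3 was at 3.80, 2.69 and 3.26 CPM in cultured VmSC4 (-1.03 ± 0.41, 0.0282) and 3.01, 2.58 and 4.28 in cultured VmSC5 (-1.64 ± 0.40, 0.000824). The Tyro3 call in VmSC4 was lost with DESeq2 (adjusted p = 0.0658) and without fresh replicate 2 (0.0792) or cultured replicate 2 (0.102) or 3 (0.0642). The count was 5 of 5 members lower in both populations, where 70.4% (VmSC4) and 71% (VmSC5) of all tested genes were called in 1 direction or the other. In bulk samples, fewer cells of a type and less RNA per cell cannot be told apart, and cultured libraries differ from fresh ones in lysis, depth (1841664 to 2606360 counts) and mitochondrial share (6.05 to 7.26% against 0.0722 to 0.423%), which cannot be told apart from culture.

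Cultured VmSC5 and VmSC4 did not differ in any member at the threshold of edgeR (0 of 5, and 1 of 5 at an unadjusted p under 0.05; 0.34% of all genes called, and 1039 genes at an unadjusted p under 0.05). Gas6 was lower in VmSC5, without overlap, and did not pass (-0.61 ± 0.15, edgeR adjusted p = 0.0821). This value passed when only both groups entered the fit (0.021), with DESeq2 (0.0244) and without cultured VmSC4 replicate 3 (0.0248) or cultured VmSC5 replicate 2 (0.0136). It did not pass with RLE factors, with total-count scaling or with any other library left out.

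Treg exposure during adipogenic differentiation raised both ligand genes and Axl in VmSC5. Axl was at 206, 186 and 244 CPM without Treg and 538, 558 and 473 with Treg (1.32 ± 0.09, edgeR adjusted p = 4.88e-08). Pros1 was at 103, 114 and 119 CPM without and 258, 262 and 247 with Treg (1.20 ± 0.07, 1.52e-17). Gas6 rose less, from 649, 619 and 757 to 877, 850 and 788 CPM (0.33 ± 0.06, 0.000109), and for all 3 genes the groups did not overlap. How many of all genes did not overlap was not counted. Mertk, at 22.6, 22.4 and 24.1 CPM without and 20.2, 27.0 and 27.1 with Treg, did not pass (0.12 ± 0.13, edgeR adjusted p = 0.51). Tyro3 (3.22 to 3.65 against 3.06 to 4.54 CPM) did not pass either. Hence 3 of 5 members were called, against 43.4% of all tested genes.

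OSM raised Pros1 most of the 5. The Pros1 libraries were at 241, 303 and 279 CPM with PBS and 1321, 1320 and 1348 with OSM (2.37 ± 0.09, edgeR adjusted p = 4.5e-28). Axl rose from 278, 320 and 285 to 540, 429 and 423 CPM (0.75 ± 0.09, 3.33e-09). Gas6 fell from 728, 788 and 711 to 501, 621 and 590 CPM (-0.28 ± 0.08, 0.00508), a call lost without PBS replicate 2 (0.051) or OSM replicate 1 (0.0839). The OSM and PBS libraries did not overlap for any of these genes, and the share of all genes without overlap was not counted. Mertk was at 9.27, 5.77 and 10.2 CPM with PBS and 9.63, 7.46 and 5.91 with OSM (0.02 ± 0.41, edgeR adjusted p = 0.979), and Tyro3 (1.87 to 11.8 CPM) did not pass the filter on low counts. So 3 of the 4 tested members were called, where 45.8% of all tested genes were.

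**Figure D3:**
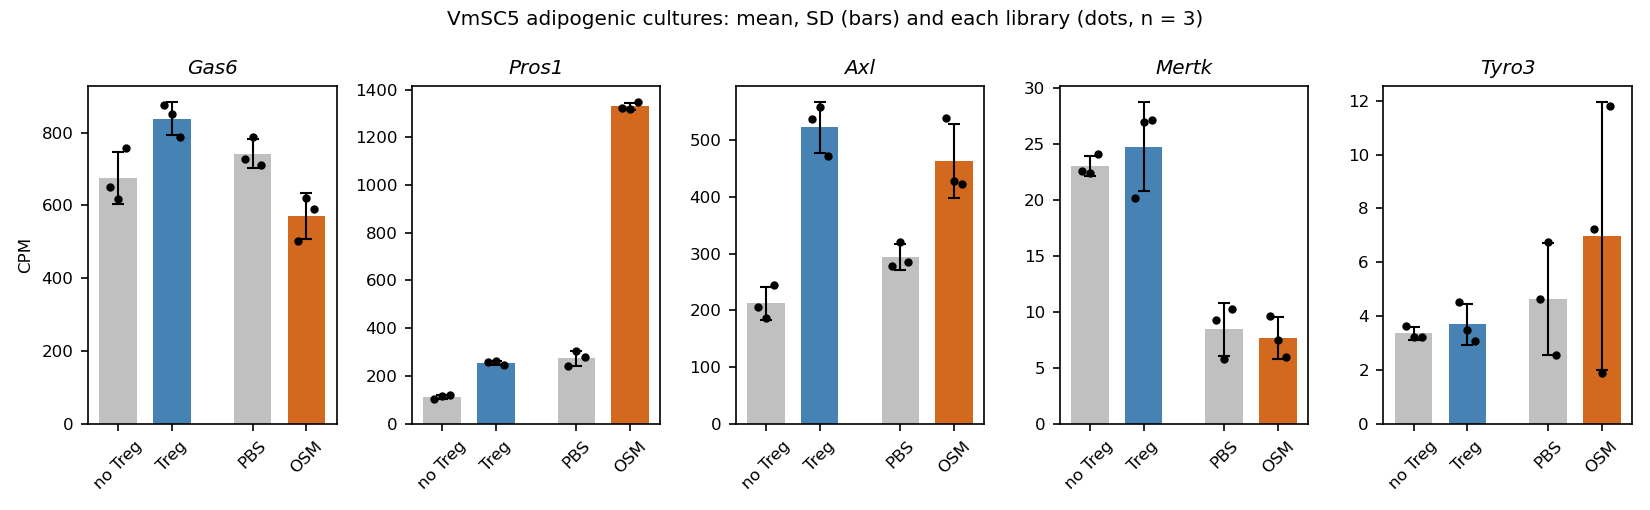
Levels of the 5 genes in VmSC5 cultures without and with Treg and with PBS or OSM (y axis, CPM from 0; bars, mean and SD; dots, libraries; n = 3). Pros1 and Axl are higher with Treg and with OSM, Gas6 is higher with Treg (838 against 675 CPM) and lower with OSM (571 against 742.1).

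The responses to OSM and to Treg differed for the ligands and for Axl. In 1 fit over the 4 groups, the OSM response minus the Treg response was 1.21 ± 0.11 for Pros1 (edgeR adjusted p = 7.77e-13), -0.57 ± 0.11 for Gas6 (3.61e-05) and -0.53 ± 0.14 for Axl (0.00485), and did not pass for Mertk (-0.05 ± 0.40, 0.946) or Tyro3 (0.57 ± 0.59, 0.504). The 3 of 5 compare with 32.5% of all tested genes. The experiments differ in depth (4648878 to 7933682 counts against 1072147 to 2078534) and in their control levels (Pros1 112 ± 8.02 without Treg and 274 ± 31.0 with PBS), which cannot be told apart from the treatments.

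Marker lists moved in the same cultures. The stromal sum was 5385 to 6285 CPM without and 13091 to 15109 with Treg (5 of 7 markers rose and 2 fell). It was 12923 to 13187 with PBS and 50066 to 60811 with OSM (5 of 7 rose and 1 fell). The adipocyte sum was 21886 to 23704 without and 13802 to 15611 with Treg, and 11976 to 13772 with PBS and 985 to 1437 with OSM. Of the 12 macrophage markers, 5 rose and 1 fell with Treg (median log2 fold change 0.27). Their sum was 281 to 327 CPM without and 199 to 227 with Treg. Most of that sum without Treg was Lyz2, lysozyme, at 162 to 186 CPM without and 25.0 to 29.9 with Treg. Csf1r, the macrophage growth factor receptor, was at 13.1 to 16.3 CPM without and 23.8 to 28.0 with Treg. With OSM, 2 of the 9 macrophage markers tested rose and none fell, at a sum of 361 to 373 with PBS and 316 to 529 with OSM. Pericyte and smooth muscle markers summed to 193 to 246 CPM with PBS and 959 to 1253 with OSM (4 of 5 tested rose, median 2.61), and to 117 to 146 without and 70.6 to 79.4 with Treg (3 of 4 tested fell). Endothelial markers summed to 80.4 to 92.1 with PBS and 226 to 277 with OSM (6 of 6 tested rose, median 1.91), and to 84.5 to 105 without and 44.5 to 81.2 with Treg (1 rose and 1 fell of 8). Of the mesothelial markers, 5 of 7 rose with Treg, and with OSM 4 of 5 fell and 1 rose. The part of these lists in the member changes was not tested. Treg markers summed to 4.18 to 5.55 CPM with Treg and 4.17 to 4.75 without.

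Around the TAM genes, 88 genes of 7 lists were followed. In the Treg cultures 30 of 63 tested rose and 8 fell (60.3% called, beside 43.4% of all genes). The median log2 fold change was 0.24, against -0.0029 over all genes. With OSM 23 of 55 rose and 13 fell (65.5%, beside 45.8% of all genes, and median 0.25, against 0.0036). The counts per list that follow stand beside the same shares of all genes. Vitamin K cycle genes, on which both ligands depend for carboxylation, split 4 higher and 1 lower of 8 with Treg and 4 and 4 of 8 with OSM. Vkorc1, the vitamin K epoxide reductase, rose with Treg (0.71 ± 0.08, edgeR adjusted p = 6.93e-09) and OSM (1.36 ± 0.11, 1.4e-14), and Calu, an inhibitor of the carboxylase, rose with both (0.39 and 0.80). Aifm2, a vitamin K reductase, fell with OSM by 2.48 on the log2 scale (edgeR adjusted p = 3.89e-21).

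Among other Gla proteins, Mgp, an inhibitor of calcification, rose with OSM (1.19 ± 0.10, edgeR adjusted p = 2.05e-14) and fell with Treg (-0.27 ± 0.07, 0.00139). Lgals3, the lectin galectin-3 that also binds MERTK, rose with Treg (0.70 ± 0.07, 7.57e-11) and fell with OSM (-0.49 ± 0.09, 2.1e-05). Adam10, a protease that sheds receptors, rose with OSM (0.88 ± 0.12, edgeR adjusted p = 2.08e-08). With Treg it also rose, with overlapping libraries (0.20 ± 0.08, edgeR adjusted p = 0.0412). Other phosphatidylserine bridges and receptors had 5 of 10 higher and 2 lower with Treg and 6 of 9 higher and 2 lower with OSM. Thbs1, the bridging protein thrombospondin 1, rose with Treg (45.6 to 203 CPM on average, 2.17 ± 0.08, 2.79e-23), Calr, calreticulin, rose with both (1.05 and 1.30), and Cd36, a scavenger receptor and fatty acid carrier of adipocytes, fell with both (-0.40 and -3.63). In the list of phosphatidylserine exposure genes and flippases, which work against exposure, 6 of 9 rose with Treg and 3 of 7 with OSM. The scramblase genes Plscr1 (2.31) and Xkr8 (1.00) were among those that rose with Treg, and the flippase gene Atp11a (0.62) among those that rose with OSM. Of the engulfment machinery, 6 of 14 rose and 2 fell with Treg, and 4 of 13 rose with OSM, led by Vav2 (1.46).

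Signal adaptors and innate feedback genes had 5 of 14 higher and 2 lower with Treg and 4 of 11 higher and 5 lower with OSM. Socs3, the feedback inhibitor that STAT3 induces, rose with Treg (12.8 ± 1.69 to 67.8 ± 7.30 CPM; 2.41 ± 0.12, edgeR adjusted p = 4.75e-19) and more with OSM (32.4 ± 5.42 to 748 ± 77.0; 4.63 ± 0.12, 2.61e-34). The difference between these responses passed (2.26 ± 0.19, edgeR adjusted p = 1.24e-13). Ifnar2, the partner of the interferon receptor that TAM receptors use, rose with both (1.46 and 1.72). Pik3r1, the regulatory subunit of PI3-kinase, fell with OSM from 127 ± 15.7 to 28.0 ± 5.62 CPM (-2.10 ± 0.17, edgeR adjusted p = 3.28e-15). These lists were drawn up with earlier results of the same counts known and are descriptions.

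After 8 days of culture the share of these genes called was near that of all genes (73% beside 70.4% in VmSC4, 71.4% beside 71% in VmSC5). Of the 63 tested, 36 were lower and 10 higher in VmSC4 (median -0.89 against -0.24 over all genes) and 36 and 9 in VmSC5 (median -0.89 against -0.18). Engulfment machinery had 9 of 14 lower in VmSC4 and 10 of 14 in VmSC5, with none higher. Lrp1, an engulfment receptor, fell by 2.82 on the log2 scale in VmSC4 and by 3.16 in VmSC5. Against this direction, Cd36 (109 to 5752 CPM in VmSC4; 6.27 ± 0.37, edgeR adjusted p = 1.74e-07), Lgals3 (4.28 ± 0.15, 1.03e-18), Aifm2 (3.63 ± 0.14, 3.9e-18) and Mfge8 (370 to 2497 CPM; 3.29 ± 0.14, 6.2e-17), which encodes another bridge to phosphatidylserine, rose in cultured VmSC4, and in VmSC5 by 9.23, 4.07, 3.68 and 3.05. By edgeR, 0 of the 63 were called between cultured VmSC5 and VmSC4 (45 of 13221 genes in all), and 7 had an unadjusted p under 0.05.

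Between transferred groups few pathway genes were called. In VmSC4-derived VmSC5, 3 of 68 were below VmSC4-derived VmSC4 (Lrp1 -0.64, Prrg3 -0.71, Pik3r1 -0.64), which was 4.41%, beside 1.77% of all genes. In VmSC5-derived VmSC5, 3 were lower and 1 higher than in VmSC4-derived VmSC4 (Lrp1 -0.54, Prrg3 -0.79, Pik3r1 -0.87, Aifm2 0.90), which was 5.88%, beside 3.41%. Lrp1, Prrg3 (a transmembrane Gla protein) and Pik3r1 (the regulatory subunit of PI3-kinase) were thus lower in both contrasts, which share the VmSC4-derived VmSC4 libraries. VmSC4-derived VmSC5 exceeded VmSC5-derived VmSC5 in Vkorc1 (0.53) and were lower in Lgals3 (-0.75), 2.94% of the pathway genes tested beside 1.15% of all genes. Against fresh cells, 26 of 68 were higher and 12 lower in VmSC4-derived VmSC4 (55.9%, beside 46.1% of all genes), and 23 and 17 in VmSC5-derived VmSC5 (58.8%, beside 46.4%). Adam10 (1.28 and 1.85) and Adam17 (1.15 and 1.20), sheddases of AXL and MERTK, were higher in transferred cells of both origins.

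In floating cells, DTR+ libraries held less Axl: 25.6 and 22.8 CPM in DTR- and 4.00 and 2.04 in DTR+ (log2 fold change -2.63 ± 0.70, edgeR adjusted p = 0.0495). This was 1 of the 4 members tested, where 2.43% of all tested genes were called. The call was lost when libraries were scaled by total count alone (0.267) and without DTR- replicate 2 (0.756) or 3 (0.94). Gas6 was at 442 and 430 CPM in DTR- and 181 and 51.1 in DTR+, without overlap, and did not pass (-1.64 ± 0.63, 0.195). Pros1 (46.4 and 50.3 against 30.0 and 4.77 CPM) was also lower in both DTR+ libraries and did not pass (-1.26 ± 0.68, 0.364). Mertk was at 50.4 and 70.5 CPM in DTR- and at 88.2 and 8.45 in DTR+, so that the DTR+ libraries lay on either side of both controls (-0.14 ± 0.71, 0.934). Tyro3 had at most 7 counts in a library and was not tested.

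DTR+ replicate 3 was the lower DTR+ library for all 5 genes. Without DTR+ replicate 2, which leaves replicate 3 alone and assumes that it varies as the DTR- libraries do, Gas6 (-2.30, edgeR adjusted p = 2.89e-06), Pros1 (-2.54, 4.71e-05) and Mertk (-2.04, 0.000301) passed. Without DTR+ replicate 3, Gas6 passed (-1.18, 0.0475) and Mertk was higher in DTR+ (0.64). Over all genes, 287 were called with all libraries, 5370 without DTR+ replicate 2, 918 without DTR+ replicate 3, 26 without DTR- replicate 2 and 6 without DTR- replicate 3.

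Markers of other cells moved with these values. The endothelial sum was 495 to 601 CPM in DTR- and 20.9 to 51.5 in DTR+. All 9 endothelial markers were detected in both groups, and 8 of the 9 were called lower (median log2 fold change -3.91). The stromal sum was 816 to 1972 against 248 to 319 (3 of 6 tested called lower), and the pericyte and smooth muscle sum 238 to 331 against 37.2 to 81.2 (3 of 7 called lower). The macrophage sum was 392 to 457 against 216 to 240 (12 of 12 detected in both), with none of the 11 tested called lower and Cd14 called higher (median log2 fold change -1.15). Adipocyte markers were at 25746 to 29269 in DTR- and 27607 to 33124 in DTR+. Their part in the Axl and Gas6 values was not tested. Of the pathway genes, 3 of 61 were lower in DTR+ and none higher (4.92% called, beside 2.43% of all genes, and median -0.61, against -0.04 over all genes). The 3 were Stab1, a phosphatidylserine receptor of sinusoidal endothelium and macrophages (-3.76 ± 0.79, edgeR adjusted p = 0.0137), Elmo1, an engulfment adaptor (-3.50 ± 0.83, 0.0264), and Prrg3 (-2.46 ± 0.64, 0.0444).

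**Figure D4:**
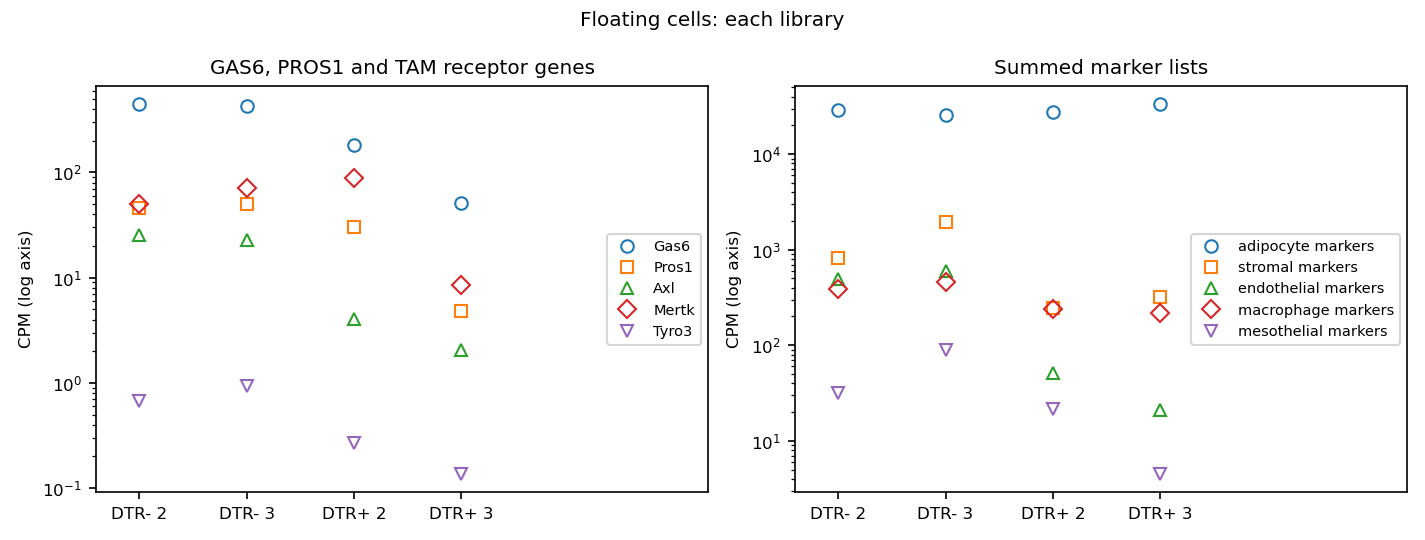
Floating cells of DTR- and DTR+ animals: CPM (y axis, log scale) of the 5 genes (left) and of 5 summed marker lists (right) in each of the 4 libraries (x axis). Axl and the endothelial sum are lower in both DTR+ libraries, Mertk is not, and adipocyte markers stay between 25746 and 33124 CPM.

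Tregs transcribed Axl, Pros1 and Tyro3, and the comparison of KO and WT cells asks whether loss of Osm alters them. Axl was at 97.1, 87.1 and 102 CPM in WT and 43.4, 98.2 and 77.6 in KO (-0.36 ± 0.28, edgeR adjusted p = 0.721). Pros1 was at 60.2, 77.8 and 52.8 CPM in WT and 60.2, 42.5 and 67.5 in KO (-0.12 ± 0.24, 0.911), and Tyro3 at 15.1, 8.38 and 15.6 in WT and 17.5, 15.3 and 14.9 in KO (0.32 ± 0.38, 0.836). The groups overlapped for all 3. By edgeR, 0 of the 3 tested members and 0 of 57 pathway genes were called (0 and 5 at an unadjusted p under 0.05), with 0.0526% of all tested genes called (6 of 11416; 1158 had an unadjusted p under 0.05). DESeq2 called no member either. Gas6 and Mertk were too low to test. Gas6 was at 0, 0.599 and 1.54 CPM in WT and 6.47, 0.663 and 0 in KO, and Mertk at 2.25, 1.80 and 0 in WT and 0, 0 and 0.597 in KO. A count of 0 allows up to 0.676 CPM of Gas6 in WT replicate 1. KO replicate 1, the library with 27 Gas6 counts, also held the macrophage genes Mrc1 (18.0 CPM), Csf1r (12.0) and C1qb (10.5), and the lowest Axl level. Their part in the Gas6 value was not tested.

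**Figure D5:**
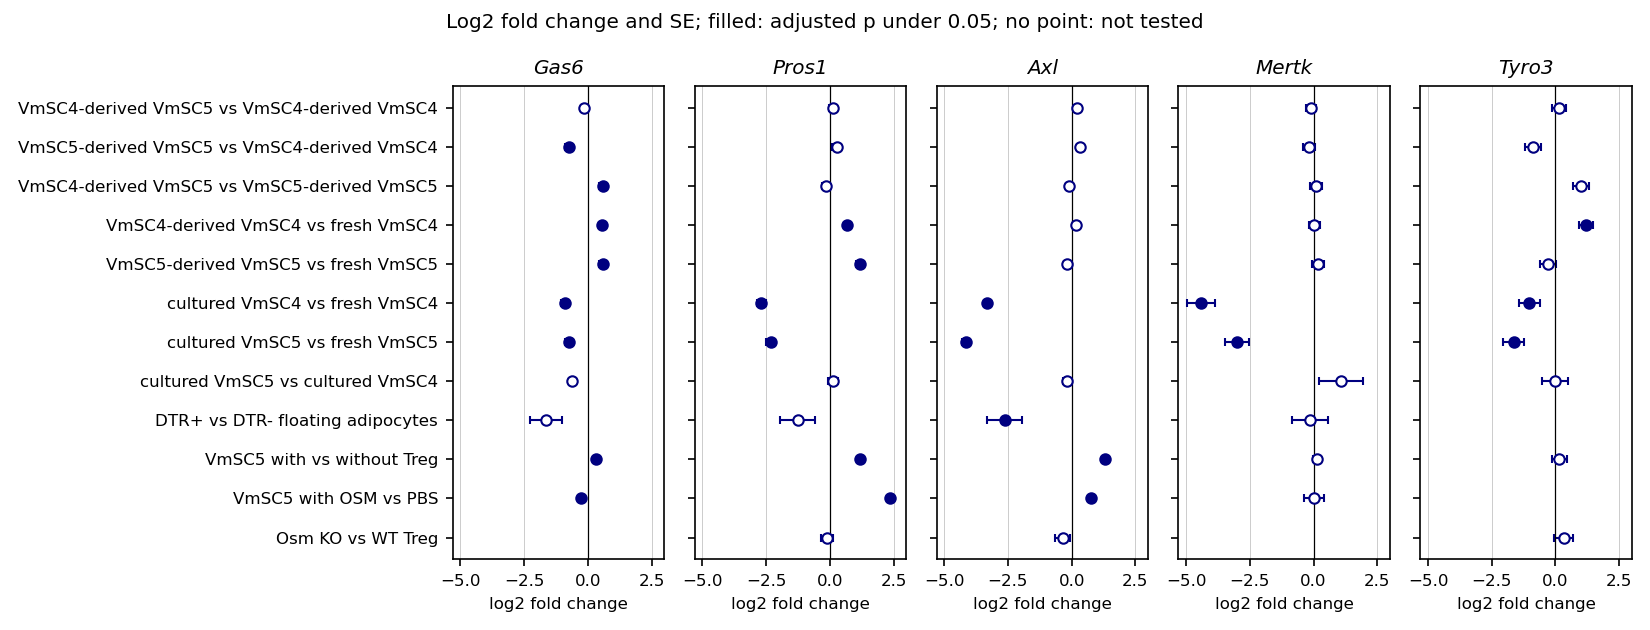
Log2 fold change ± SE (x axis) of each gene in the 12 tested pairs of groups (y axis; the first-named group against the second). Filled points passed at adjusted p under 0.05 and missing points were not tested. All 5 genes are lower after culture, and Pros1 shows the highest rise, 2.37 with OSM.

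Genes whose levels ran most like each member were looked for among 11632 genes that reached 10 CPM in a group, by Pearson's r of log2(mean CPM + 1) over the 15 groups. For Gas6 they were Nfib (0.99), Rbfox2 (0.99) and Lama4 (0.99); for Pros1 Ttc26 (0.97), Man2a1 (0.96) and Dnajc18 (0.96). Axl was most like Ecm1 (0.98), Clcn5 (0.97) and Frmd6 (0.97), Mertk like Adgrg2 (0.94), Acadsb (0.94) and Tns2 (0.94), and Tyro3 like Parp8 (0.97), Arap1 (0.97) and Rassf2 (0.96). Among the members, Pros1 and Axl were the closest pair (0.88), then Axl and Tyro3 (0.76) and Gas6 and Mertk (0.68), while Mertk and Tyro3 (-0.20) and Gas6 and Tyro3 (-0.11) were not alike. Groups share cell type, preparation and depth, so these values describe the groups and carry no p.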

How the data were processed

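All 42 libraries were taken as gene counts from the 1 table that the authors deposited. Reads were aligned to mm10 with STAR 2.7.3a and counted with featureCounts, per the submitters' processing notes; annotation release, strand setting and treatment of multi-mapping reads are not given in the sources used here. Per the labels' protocols, 1000 fresh cells, 5 of 20 µl of a lysed culture well, or 2 ng of floating-cell RNA entered a library.

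Counts were tested with edgeR 4.0.16 (R 4.3.3, limma 3.58.1): quasi-likelihood F test, robust, TMM scaling, genes kept by filterByExpr at a minimum count of 10, two-sided, Benjamini-Hochberg over all genes tested, called at adjusted p under 0.05. The SE is the log2 fold change divided by the square root of F. Fresh with transferred cells, fresh with cultured cells, and each other experiment were fitted separately. CPM uses the library total as deposited; exon lengths are GENCODE M21 unions. The floor of a count of 0 is 3 counts. Overlap of groups was not counted over all genes, so a lack of overlap describes only the gene named. The method was tested on simulated counts, drawn with the same dispersion for all genes and no library standing apart. That test does not cover groups that hold such a library. The members, the pathway lists and the marker lists were chosen with earlier results of these data known. Named genes are the 5 members, up to 3 called genes per list and comparison with the smallest adjusted p, the 3 genes most like each member, and markers that move with a member. One gene that this rule names is not reported here. Fresh VmSC5 against VmSC4, which chose the members, was not tested, nor was the difference of their culture responses, which contains it. Alternatives were DESeq2 1.42.0, RLE factors, no filter, a replicate block, only the compared groups, leaving out each library and, chosen after seeing the data, total-count scaling and a crossed block for the floating cells. Replicate numbers did not pair libraries (correlations of same-numbered deviations -0.4126 to 0.0997), and no replicates were duplicates.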

Additional observations from a re-analysis of the deposited data

Results flagged for a closer look

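Differences between the responses of VmSC5 to OSM and to Treg, tested as a contrast of 4 groups with edgeR, stood out for 3 members: Pros1 (1.21 on the log2 scale, OSM response minus Treg response), Gas6 (-0.57) and Axl (-0.53). Pros1 rose in both experiments and more with OSM, Axl rose in both and more with Treg, and Gas6 rose with Treg and fell with OSM. The responses come from separate experiments with different depths and controls. No group held the 4 libraries that the check for outlying samples needs.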

How the results depend on the processing

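Of the member results, the counts of members called changed by over 1.5 times in 4 comparisons. VmSC5-derived VmSC5 against VmSC4-derived VmSC4 had 1 member called, 3 with the replicate block (Pros1 and Axl joined Gas6, edgeR adjusted p = 0.0484 and 0.0191), 2 with only the compared groups (Tyro3 joined), and 0 to 1 with a library left out. VmSC4-derived VmSC5 against VmSC5-derived VmSC5 had 1, then 2 with only the compared groups and 0 to 0 with a library left out. Cultured VmSC5 against cultured VmSC4 had 0, and 1 with DESeq2, no low-count filter, the replicate block or only the compared groups, and 0 to 1 with a library left out. DTR+ against DTR- floating cells had 1, then 0 with the replicate block (Axl, edgeR adjusted p = 0.289), 0 with total-count scaling, 2 with the crossed replicate block and 0 to 4 with a library left out. Smaller changes were 4 in place of 5 in cultured against fresh VmSC4 (DESeq2, and 3 of the 6 libraries left out in turn), 2 in place of 3 with OSM (2 of 6), and 3 in place of 2 in VmSC5-derived against fresh VmSC5 (replicate block). The cause was not tested. Same-numbered libraries did not pair (no comparison had all correlations over 0.1), so the block is given for completeness; it changed no other count by over 1.5 times.

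Values near 0 that did not pass changed sign. Mertk in VmSC4-derived VmSC4 against fresh VmSC4 was -0.025 with no filter (-0.0633 to 0.19 with a library left out), Tyro3 in cultured VmSC5 against VmSC4 0.0161 with total-count scaling (-0.22 to 0.12), and Mertk with OSM -0.0362 with DESeq2, -0.0379 with no filter, -0.026 with the replicate block and -0.086 with total-count scaling (-0.26 to 0.20). With a library left out, Mertk ranged from -2.04 to 0.64 in floating cells, -0.33 to 0.13 for OSM minus Treg, -0.31 to 0.0496 in VmSC4-derived VmSC5 against VmSC4-derived VmSC4, -0.0778 to 0.24 against VmSC5-derived VmSC5, and -0.19 to 2.27 in cultured VmSC5 against VmSC4. Tyro3 ranged from -0.0934 to 1.02 for OSM minus Treg, -0.0077 to 0.26 in VmSC4-derived VmSC5 against VmSC4-derived VmSC4 and -0.0267 to 0.27 with Treg, and Pros1 from -0.26 to 0.0484 in KO Tregs.

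Total-count scaling in place of TMM shifted the median log2 fold change by -0.54 in cultured VmSC4, -0.42 in cultured VmSC5, -0.38 in floating cells, -0.10 with OSM and -0.13 for OSM minus Treg. The share of called genes that were higher then went from 45.3% to 30.0%, 47.0% to 35.3% and, for OSM minus Treg, 45.95% to 33.7%; from 42.1% to 20.3% in VmSC4-derived VmSC5 against VmSC4-derived VmSC4, from 45.6% to 32.0% against VmSC5-derived VmSC5, and from 16.7% to 0% in KO Tregs, and no gene was called in floating cells. Depth limits Mertk, Tyro3 and, in Tregs, Gas6. Of the alternative values in all, 692 were kept, 29 reversed direction, 16 gained a call and 16 lost it. Kept means the same direction and side of the threshold. For the untested fresh contrast, which has no threshold, it means the same direction and a shift within the SD.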
